A study of Mus musculus with 24 samples.

Results

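The lysosome and V-ATPase genes are 48 named genes that encode lysosomal membrane proteins, the hydrolases of the lumen, the MiT/TFE transcription factors, p62, Gpnmb and the subunits of the vacuolar proton pump. Probes were assigned to the list by gene symbol alone, but the list itself was chosen with earlier results of these data known. On the Illumina MouseRef-8 v2 array 47 of them had an annotated probe, 73 of the 25697 probes in all (16593 gene symbols), and *Atp6v0c* had none. In the first experiment 45 members were bright enough to test among 8569 genes (*Tfeb* and *Atp6v0d2* were not), and in the second 46 among 9123 (*Atp6v0d2* was not).

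RNA was measured in bone marrow-derived macrophages (BMDMs) of C57BL/6 mice aged 8 to 10 weeks, cultured for 7 days with L929-conditioned medium, on 24 arrays in 8 groups of 3. In the IKKβ experiment, wt BMDMs came from *Ikkβ* F/F mice, in which the gene is floxed but intact, and IKKβ-deficient BMDMs from *Ikkβ* F/F mice that also carry *Mx1-Cre*, a recombinase driven by an interferon-inducible promoter and not by a macrophage-specific one. In the p38 experiment, BMDMs were pretreated for 2 h with 10 µM SB202190, an inhibitor of p38 kinases, or were controls, which the labels call WT and the study elsewhere describes as DMSO-treated. Each of the 4 kinds of culture was harvested at 0 h and after 4 h with 100 ng/ml lipopolysaccharide (LPS), a bacterial ligand of TLR4. The labels also name RAW264.7, a mouse macrophage line, as the cell line of every sample, while their growth protocol describes BMDMs. No source used here says whether the 3 arrays of a group came from separate mice or cultures, so each p-value measures only the spread between these arrays.

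Lysosomes degrade material that a macrophage takes up or sorts for turnover, with hydrolases that work at acid pH. The V-ATPase keeps the lumen acid: its V1 sector hydrolyses ATP in the cytosol and turns the V0 sector, which carries protons across the membrane. Tfeb, Tfe3 and Mitf bind E-box sequences around CACGTG, and many genes of lysosomal proteins carry such a sequence near their start.

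In the RefSeq table of mouse promoters (GRCm38.p6, from 250 bases before to 50 bases after the start), 39 of the 48 members were matched by symbol. The table held 32851 windows for 27025 genes, and a gene counted if any of its windows held the match. The palindrome CACGTG was found for 14 of these 39 members (35.9%) and for 8.09% of all 27025 genes. The longer form GTCACGTG, or CACGTGAC on the other strand, contains that palindrome and lay in 10 of 39 (25.6%) against 2.55% of all genes. The full form of 10 bases, with GT before and AC after the palindrome, lay in 0 of 39 members against 0.37% of all genes. No excess was thus seen for it. At so low a share among all genes, 0 of 39 cannot show whether the members differ from them. A match is a description of the letters in the window and not of binding. The stretches of 5 members are printed to show how the palindrome is repeated or placed, with CACGTG in capitals. *Mcoln1* (a calcium channel of the lysosomal membrane) is at chr8:3500434-3500493 on the plus strand, *Lamp1* (an abundant membrane glycoprotein) at chr8:13159096-13159155 on the plus strand, *Glb1* (acid β-galactosidase) at chr9:114401003-114401062 on the plus strand, *Atp6v0b* (a proton-carrying ring subunit) at chr4:117887330-117887389 on the minus strand and *Atp6v0d1* (the V0 subunit d) at chr8:105566050-105566079 on the minus strand.
Mcoln1: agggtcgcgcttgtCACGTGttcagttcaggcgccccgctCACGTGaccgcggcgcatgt
Lamp1: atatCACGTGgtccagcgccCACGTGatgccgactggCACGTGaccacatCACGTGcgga
Glb1: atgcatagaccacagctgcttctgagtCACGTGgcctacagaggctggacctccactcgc
Atp6v0b: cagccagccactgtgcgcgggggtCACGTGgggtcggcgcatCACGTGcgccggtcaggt
Atp6v0d1: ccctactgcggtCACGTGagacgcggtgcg

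Several arrays need to be known before the results. *Ikbkb*, the targeted gene, had log2 normalized values of 8.33, 8.70 and 8.88 in wt at 0 h and 9.63, 9.23 and 9.38 at 4 h, against 7.61, 7.59 and 7.52 and then 7.59, 7.81 and 7.86 in IKKβ-deficient BMDMs, so the labelled genotypes did not overlap. Of 12 listed macrophage marker symbols 8 had a probe. Of these, 7 were detected on every array and *Msr1* on none. None of 8 T and NK cell markers was bright enough to test in either experiment. Between 10050 and 12508 probes were detected per array. In the IKKβ experiment each normalized column held the same order of probes as the intensity column of the same label. In the p38 experiment this held for only 1 of 12 columns by label. Another 7 matched the intensities of a different label (2 of them of another condition, both on the BeadChip labelled 3), and 4 SB202190 columns, replicates 1 and 3 at both times, matched no deposited intensities. At both times control replicate 1 of the normalized columns matched the control on the BeadChip labelled 2, and control replicate 2 that on the BeadChip labelled 1. Detection p-values were deposited with the intensities, so detection in the p38 experiment follows the labels of the intensity columns. For *Cxcl2*, a chemokine gene that LPS induces in macrophages, the 2 columns exchanged between conditions read 15.37 (control replicate 3 at 4 h) and 8.05 (SB202190 replicate 2 at 0 h) under the normalized labels. The normalized labels thus put the high value at 4 h and the low value at 0 h, and the labels of the matched intensities put them the other way. Its log2 values in the normalized controls were 6.75, 10.31 and 9.16 at 0 h and 14.86, 10.70 and 15.37 at 4 h, so that replicate 2 hardly differed between times, and with SB202190 they were 7.89, 8.05 and 7.82 and then 13.24, 13.42 and 13.18. The SB202190 columns also lay closer together than the controls, with a median SD per gene of 0.110 at 0 h and 0.0820 at 4 h against 0.309 and 0.283. Control replicate 2 at 0 h correlated with control replicate 2 at 4 h (r = 0.985 across genes) more closely than with the other controls at 0 h (0.906 and 0.917). For these reasons the SB202190 differences of the members described below are given from the normalized columns and in a second way. The second, with no test, is the difference between SB202190 and control within each of 3 BeadChips. For the BeadChips labelled 1 and 2 it came from the intensities, which were quantile-normalized together here and put on the log2 scale. For the third it came from the deposited normalized columns, among which SB202190 replicate 2 and control replicate 3 matched that BeadChip. The intensities of BeadChips 1 and 2 have limits of their own. *Cxcl2* went there from 5.93 to 13.67 on the control arrays of BeadChip 2, but went only from 8.98 to 9.39 on those of BeadChip 1 and, with SB202190, from 8.33 to 8.89 and from 8.35 to 9.50. At the same time point, control and SB202190 arrays correlated across genes at 0.988 and 0.983 on BeadChip 1 and at 0.923 and 0.949 on BeadChip 2.

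**Figure D1:**
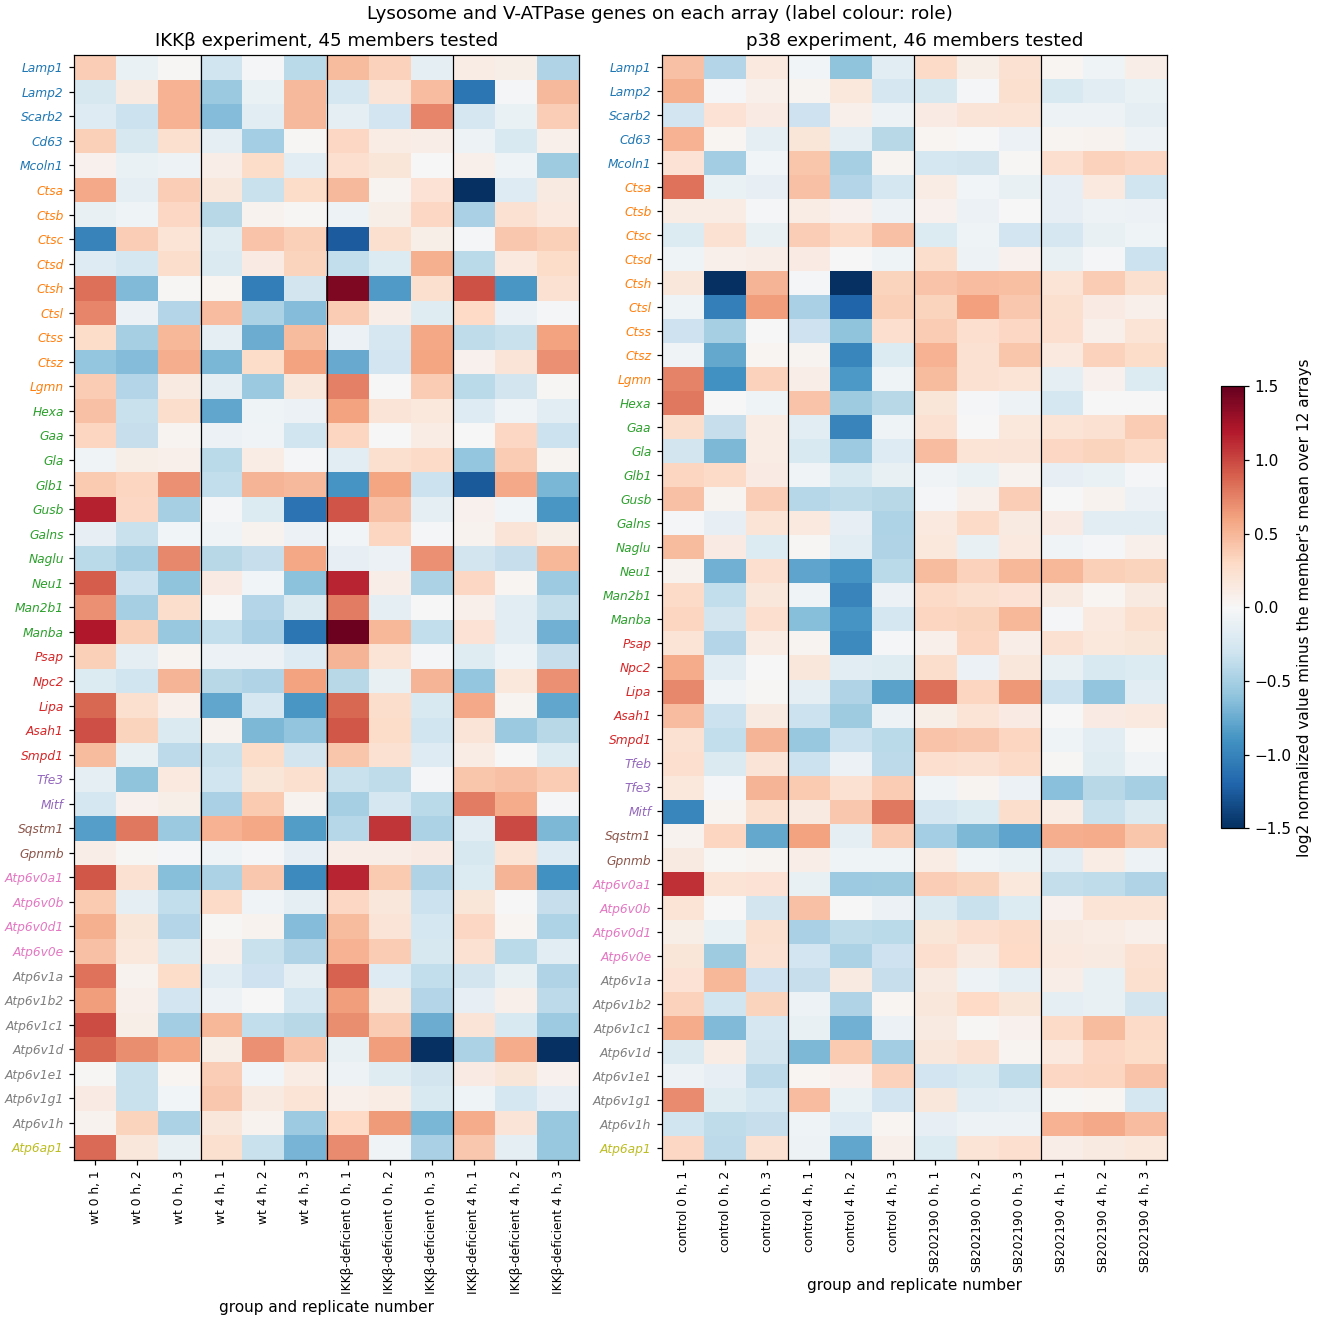
The log2 normalized value of each tested member on each array, minus the member's mean over the 12 arrays of its experiment, with groups and replicate numbers along the horizontal axis and members, coloured by role, along the vertical axis (values past the ends of the colour scale take its end colours). The 3 SB202190 arrays of a time look alike, while the controls differ among themselves, as the members' median SDs of 0.106 and 0.358 at 0 h state.

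The members as a list lay slightly higher in SB202190-treated BMDMs than in controls 4 h after LPS in the normalized columns. The median log2 difference was 0.22 over 46 members and 0.01 over all genes tested, with 35 members above 0 and 11 below. In limma with Benjamini-Hochberg adjustment over all 9123 genes, 3 members were higher and 1 was lower, 4 of 46, where 3.27% of all genes were called. In bulk RNA, fewer cells of a type and less RNA per cell cannot be told apart. Within BeadChips 1 and 2 the list lay the other way, with medians of -0.07 (16 members above 0, 29 below) and -0.47 (7 above, 39 below), and only within BeadChip 3 was it 0.20 (37 above, 8 below). In a fit of the intensities of BeadChips 1 and 2 alone, with the BeadChip as the replicate block, the median was -0.23 and no member was called. These are the intensities in which *Cxcl2* differed little between times on 3 of the 4 pairs of arrays and the controls of BeadChip 2 stood apart, and the part of either in the medians was not tested. The direction of the list at 4 h therefore depended on which set of values was used.

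Among the transcription factors, *Tfe3* was lower with SB202190. Its log2 values at 4 h were 10.14, 9.98 and 10.13 in controls and 9.13, 9.34 and 9.25 with SB202190. All 3 treated arrays lay below all 3 controls, a 1.80-fold lower level (log2 difference -0.85, SE 0.14, limma adjusted p = 0.0152). Within BeadChips 1, 2 and 3 it was lower as well, by differences of -0.72, -0.58 and -0.79, so that *Tfe3* went the same way in both readings. These are not independent. The controls of BeadChips 1 and 2 are arrays of the normalized comparison too, and the value of BeadChip 3 comes from its columns.

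*Mitf*, the melanocyte-inducing member of the same family, had values of 8.59, 8.86 and 9.25 in controls and 8.57, 8.13 and 8.24 with SB202190 at 4 h. The groups did not overlap, but the difference of -0.59 did not pass the test (SE 0.30). Within the BeadChips it was -0.61, -0.48 and -1.12. *Tfeb*, which was dim, gave 6.64, 6.88 and 6.57 in controls and 6.98, 6.79 and 6.91 with SB202190, which overlapped, and -0.05, 0.05 and 0.22 within the BeadChips.

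Of the luminal enzymes, all 10 glycosidases and sulfatases had a positive difference at 4 h (median 0.44) and 1 of them passed the test. *Neu1*, the sialidase that trims sialic acid from glycoproteins, gave 11.82, 11.74 and 12.21 in controls and 13.12, 12.97 and 12.95 with SB202190. The treated arrays all lay above the controls, 2.13-fold higher (log2 difference 1.09, SE 0.23, limma adjusted p = 0.0301). The difference was positive within each BeadChip but uneven, at 0.37, 0.13 and 0.76. *Manba*, β-mannosidase, followed with 10.22, 9.97 and 10.59 against 10.82, 10.996 and 11.10, which did not overlap and did not pass the test (difference 0.71, limma adjusted p = 0.0739). Within the BeadChips *Manba* was at 0.33, -0.15 and 0.40, below 0 on BeadChip 2. Of the 10 enzymes, *Neu1* and the β-glucuronidase *Gusb* were the ones above 0 within all 3 BeadChips at 4 h. They were also the only 2 of all 46 members to be so (4.35%), against 20.2% of all genes.

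The proteases were split at 4 h, with 5 of 9 above 0 and none called. *Ctsh*, cathepsin H, gave 13.59, 11.99 and 13.95 in controls and 13.82, 13.99 and 13.86 with SB202190, so that its difference of 0.71 (SE 0.54) rested on 1 low control array, and within the BeadChips it was -0.43, -1.88 and 0.04. *Ctsc*, the dipeptidyl peptidase that activates serine proteases of granules, gave 14.58, 14.49 and 14.65 in controls and 13.96, 14.10 and 14.14 with SB202190. These groups did not overlap, and the difference of -0.51 (SE 0.14) missed the threshold at a limma adjusted p of 0.0701. It was below 0 within each BeadChip, at -0.32, -0.59 and -0.55. The lipid-handling members were above 0 in 4 of 5 cases and the membrane proteins in 4 of 5, with none called.

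For the proton pump, all 4 tested V0 members, 5 of 7 V1 members and the accessory subunit gene *Atp6ap1* were above 0 at 4 h in the normalized columns. *Atp6v1h*, the regulatory subunit H of V1, gave 12.53, 12.41 and 12.63 in controls and 13.13, 13.17 and 13.06 with SB202190. It was 1.51-fold higher with no overlap (log2 difference 0.60, SE 0.10, limma adjusted p = 0.0171). *Atp6v0d1*, which couples V1 to the V0 ring, gave 12.59, 12.70 and 12.67 against 13.21, 13.19 and 13.15, 1.44-fold higher (log2 difference 0.53, SE 0.11, limma adjusted p = 0.0347, and 0.0511 with the replicate block). Its 4 probes differed by 0.35 to 0.65. Within BeadChips 1 and 2 neither was higher, at -0.08 and -0.19 for *Atp6v1h* and -0.04 and -0.28 for *Atp6v0d1*, while BeadChip 3 gave 0.54 and 0.51.

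All 4 calls at 4 h were lost when any 1 of the 3 SB202190 arrays at 4 h was left out. Over all 46 members, 15 were higher and 3 lower with no overlap between the groups at 4 h, where 19.6% of all genes were higher and 14.1% lower. The markers of 2 other cell types moved beside these results. Of 10 neutrophil markers 4 were bright enough to test, and their summed linear signal at 4 h was 945 to 1040 with SB202190 and 1259 to 2532 in controls. *Camp*, a granule peptide gene, was lower with SB202190 (-0.80, limma adjusted p = 0.0109). *Mpo*, *Ngp*, *Ltf*, *Prtn3* and *Mmp8* were detected in none of the intensity columns labelled as these groups. Only 1 neutrophil marker with SB202190 and 2 in controls were detected in all 3 such columns of the group. Of 8 fibroblast and stromal markers 4 were tested, all 4 below 0 with none called (median -0.65), and their sum was 711 to 746 with SB202190 and 907 to 1441 in controls, again without overlap. Only 1 of the 8 was detected in all 3 intensity columns of each group, so the sum includes markers near the detection limit. *Col3a1*, *Lum* and *Thy1* of that list were detected in none of the intensity columns labelled as these groups. Their part in the results was not tested.

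**Figure D2:**
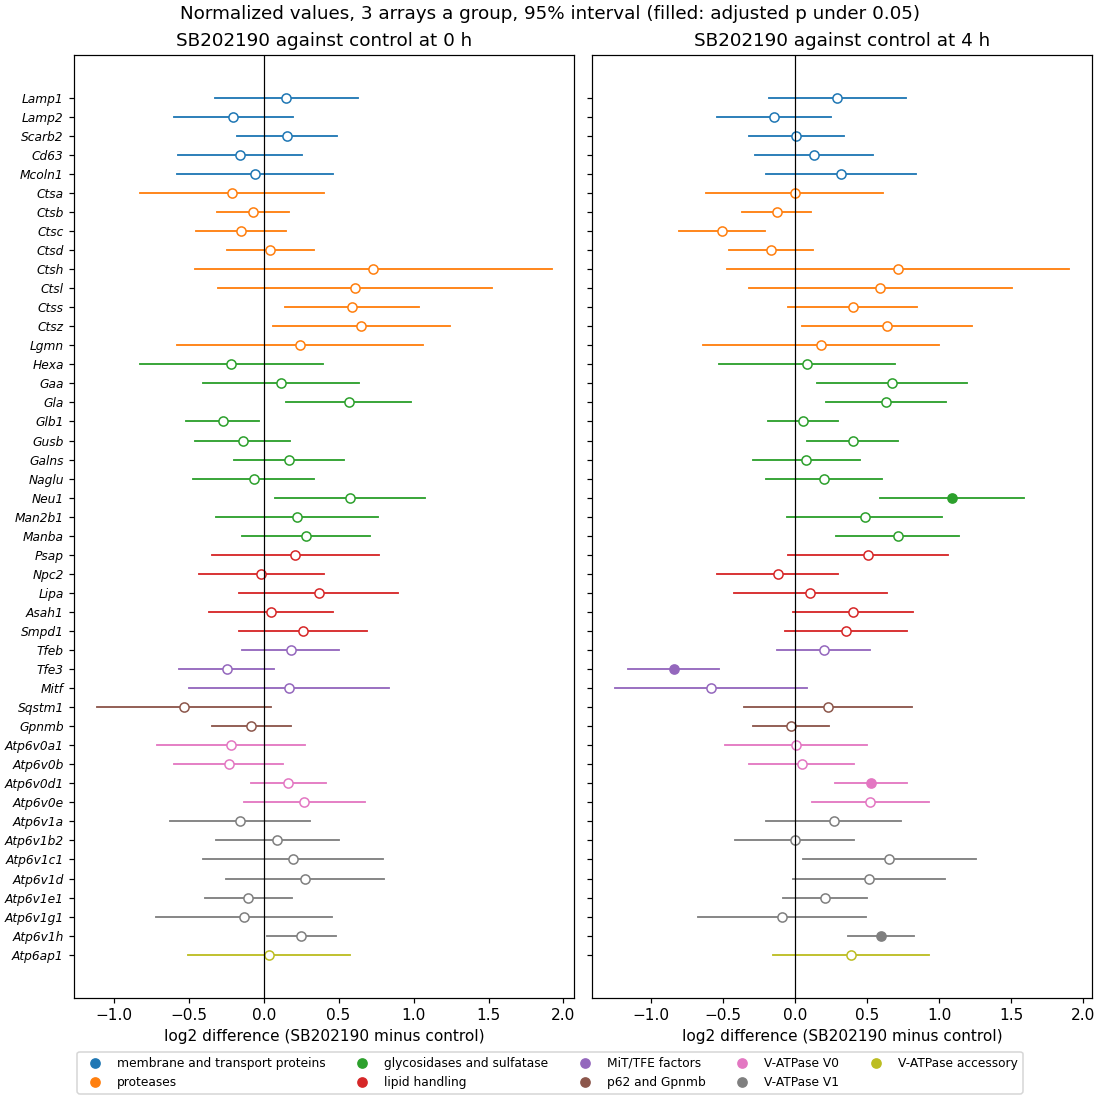
The log2 difference between SB202190-treated and control BMDMs at 0 h (left) and 4 h (right) for each of the 46 tested members, in normalized values of 3 arrays a group, with the 95% interval of the limma fit. Filled points, which occur only at 4 h, are *Neu1* (1.09), *Atp6v1h* (0.60), *Atp6v0d1* (0.53) and *Tfe3* (-0.85).

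Before LPS, at 0 h, no member passed the limma test between SB202190 and control, and neither did any other gene (0% of 9123). At an unadjusted p under 0.05 there were 6 members and 897 genes in all, and the methods' t-test gave 4 members unadjusted and 0 after adjustment. The median log2 difference was 0.10 over the members and 0.01 over all genes, with 27 members above 0 and 19 below. It was -0.06 without control replicate 2. Within BeadChips 1, 2 and 3 the medians were -0.10, -0.50 and 0.04. In the fit of 2 BeadChips it was -0.29 with 43 of 46 members below 0.

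The largest positive differences at 0 h were those of 3 cathepsins, all with a low control replicate 2, which matched the control on BeadChip 1 and not on BeadChip 2. *Ctsh* gave 13.79, 12.09 and 14.12 in controls and 14.04, 14.08 and 14.07 with SB202190 (difference 0.73). *Ctsz*, a carboxypeptidase, gave 13.58, 12.87 and 13.67 against 14.16, 13.87 and 14.05 (0.65), without overlap. *Ctsl*, a major endopeptidase of the lumen, gave 8.31, 7.35 and 9.01 against 8.71, 8.99 and 8.79 (0.61), with overlap. Without control replicate 2 these differences were 0.11, 0.40 and 0.17. Within BeadChips 1, 2 and 3 *Ctsh* was at -0.57, -1.97 and -0.04 and *Ctsl* at -0.27, -1.14 and -0.02, the other direction, and *Ctsz* at 0.01, -0.67 and 0.19.

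The lowest differences at 0 h belonged to *Sqstm1*, *Glb1* and *Tfe3*. *Sqstm1*, which encodes the autophagy receptor p62, gave 14.40, 14.67 and 13.58 in controls and 13.83, 13.68 and 13.55 with SB202190 (difference -0.53), and control replicate 3 lay among the treated arrays. Within the BeadChips *Sqstm1* was uneven, at -0.28, 0.13 and 0.10. *Glb1* gave 12.02, 11.98 and 11.82 against 11.64, 11.60 and 11.76 (-0.27), with no overlap, and -0.05, -0.14 and -0.22 within the BeadChips. *Tfe3* gave 9.91, 9.72 and 10.26 against 9.70, 9.79 and 9.66 (-0.25), with overlap in the normalized columns, while its differences within BeadChips 1, 2 and 3 were -0.41, -0.43 and -0.47.

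*Neu1* at 0 h gave 12.67, 11.89 and 12.87 in controls and 13.09, 12.96 and 13.12 with SB202190. The treated arrays lay above the controls, with a difference of 0.58 that did not pass the test (limma adjusted p = 0.49), and within the BeadChips it was 0.25, -0.54 and 0.09. *Tfeb* at 0 h was 7.22, 6.75 and 7.16 against 7.22, 7.19 and 7.25, and *Mitf* 7.48, 8.50 and 8.70 against 8.21, 8.25 and 8.72. Both overlapped. Within the BeadChips *Tfeb* was at -0.14, -0.43 and 0.03 and *Mitf* at -0.45, 0.29 and -0.45. In all, 5 members (*Ctss*, *Ctsz*, *Gla*, *Neu1* and *Atp6v1h*) were higher and 1 (*Glb1*) was lower without overlap, against 8.12% and 7.64% of all genes.

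Across both times, 4 of 46 members (8.7%) were lower with SB202190 in all 6 within-BeadChip differences, against 4.6% of all genes. They were *Tfe3*, *Atp6v1b2* (subunit B of the ATP-hydrolysing hexamer), *Npc2* (which hands cholesterol out of the lysosome) and *Ctsl*. *Ctsl* was detected on only 9 of the 12 intensity columns of the p38 experiment. No member was higher in all 6, against 4.88% of all genes. At 4 h alone 8 members (17.4%) were lower on all 3 BeadChips, against 17% of all genes, and these included *Mitf*, *Ctss* and *Ctsc*. Of these 4, only *Tfe3* also passed a test in the normalized columns.

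**Figure D3:**
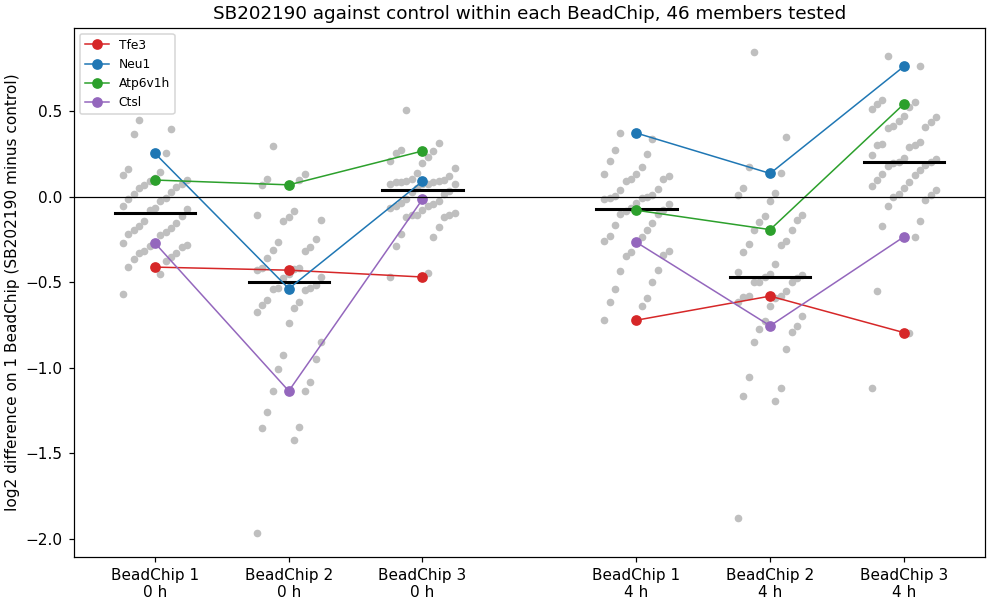
The log2 difference between SB202190 and control on each of 3 BeadChips at 0 h and 4 h, with a grey point per tested member, a black line at the median and coloured lines for *Tfe3*, *Neu1*, *Atp6v1h* and *Ctsl*. The median lay below 0 on BeadChips 1 and 2 at both times (lowest -0.50) and above 0 on BeadChip 3 (0.04 and 0.20), and *Tfe3* lay below 0 in each.

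After 4 h of LPS the members lay lower in the p38 controls, with a median log2 change of -0.27 (all genes -0.04) and 37 of 46 below 0. In limma 3 members fell and none rose, where 6.49% of all genes were called and 3.63% fell. All 10 glycosidases and sulfatases and all 5 lipid-handling members were below 0. *Gusb*, β-glucuronidase, gave 14.25, 13.84 and 14.17 at 0 h and 13.38, 13.42 and 13.39 at 4 h. It fell 1.61-fold with no overlap (log2 change -0.69, SE 0.14, limma adjusted p = 0.0241), and its 3 probes gave -0.31, -0.59 and -0.69.

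The other 2 that fell were V0 subunits. *Atp6v0d1* gave 13.17, 12.98 and 13.31 at 0 h and 12.59, 12.70 and 12.67 at 4 h, a 1.41-fold fall (log2 change -0.50, SE 0.11, limma adjusted p = 0.0310). *Atp6v0a1*, the membrane subunit on which the proton path runs, gave 13.06, 12.17 and 12.18 and then 11.85, 11.42 and 11.44, a 1.86-fold fall (-0.90, SE 0.22, limma adjusted p = 0.0411). None of the 4 h values of either reached a 0 h value. With the replicate block *Manba* passed as well (-0.69, limma adjusted p = 0.0416). Groups did not overlap for 3 members that were higher (6.45% of all genes) and 5 that were lower (9.27%).

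The control calls depended on single arrays. Without control replicate 2 at 0 h, the array that resembled a 4 h array, 13 members fell and 1 rose, where 27% of all genes were called. Without any 1 of control replicate 1 or 3 at either time, none was called. Within the control group *Tfe3* (10.14, 9.98 and 10.13 at 4 h against 9.91, 9.72 and 10.26) and *Mitf* (8.59, 8.86 and 9.25 against 7.48, 8.50 and 8.70) overlapped between times. *Tfeb* gave a change of -0.34 (SE 0.15, limma adjusted p = 0.18). Markers of other cell types moved with LPS in the controls too. The summed signal of the 5 tested osteoclast markers (of 7, *Calcr* and *Ocstamp* being undetected) was 1190 to 2797 at 0 h and 979 to 1153 at 4 h, without overlap. *Nfatc1*, a transcription factor of osteoclasts, fell (-1.65, limma adjusted p = 0.0420), as did the macrophage marker *Mertk* (-1.37, limma adjusted p = 0.0268), and *Camp* rose (0.62, limma adjusted p = 0.0211). Their part in the result was not tested.

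With SB202190 the LPS change of the list had a median of -0.09 (all genes -0.03) with 32 of 46 members below 0. In limma 3 members rose and 1 fell, where 10.1% of all genes were called. *Sqstm1* gave 13.83, 13.68 and 13.55 at 0 h and 14.89, 14.90 and 14.76 at 4 h, a 2.25-fold rise with no overlap (log2 change 1.17, SE 0.26, limma adjusted p = 0.0221). In controls its change was 0.41 and did not pass the test. On the intensities of BeadChips 1 and 2 its change with SB202190 was -0.68, the opposite direction, where *Cxcl2* with SB202190 changed by little as well, from 8.33 to 8.89 and from 8.35 to 9.50.

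The other 2 that rose were V1 subunits. *Atp6v1h* gave 12.48, 12.52 and 12.53 and then 13.13, 13.17 and 13.06, a 1.53-fold rise (0.61, SE 0.10, limma adjusted p = 0.0085). *Atp6v1e1*, the stalk subunit E, gave 14.20, 14.26 and 14.11 and then 14.81, 14.82 and 14.92, a 1.57-fold rise (0.66, SE 0.13, limma adjusted p = 0.0143). Both groups were apart in each case. For *Atp6v1h* the rise was not seen on the intensities of 2 BeadChips, where its change was -0.00056.

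*Lipa*, the acid lipase that frees cholesterol from its esters, was the member that fell with LPS under SB202190. It gave 12.74, 12.24 and 12.56 at 0 h and 11.59, 11.32 and 11.75 at 4 h, a 1.95-fold fall with no overlap (-0.96, SE 0.24, limma adjusted p = 0.0326). In controls its values were 12.64, 11.87 and 11.93 and then 11.77, 11.46 and 11.12. They did not overlap either, and the change of -0.70 did not pass the test (limma adjusted p = 0.10). *Atp6v0a1*, at 12.33, 12.30 and 12.13 and then 11.61, 11.59 and 11.52, passed with the replicate block (-0.68, limma adjusted p = 0.0445) and not without it.

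Under SB202190, 6 members were higher and 15 lower with no overlap, against 25.2% and 32.6% of all genes, where these arrays lie close together. When the spread was taken from the SB202190 arrays alone, 18 members were called, and 17 with array weights by group. When any 1 SB202190 array was left out, 1 or 2 members were called. The osteoclast markers summed to 2221 to 2432 at 0 h and 1106 to 1182 at 4 h, and the neutrophil markers to 1208 to 1433 and then 945 to 1040, both without overlap. *Nfatc1* (-1.53, limma adjusted p = 0.0422) and *Ctsk*, the collagen-degrading cathepsin of osteoclasts (-0.84, limma adjusted p = 0.0325), fell. So did the macrophage markers *Fcgr1* (-2.35, limma adjusted p = 0.0104) and *Mertk* (-1.16, limma adjusted p = 0.0354). Of the 7 macrophage markers tested, 3 were above 0 and 4 below, with a median of -0.02 and a highest value of 0.67. The part of all these markers in the result was not tested.

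**Figure D4:**
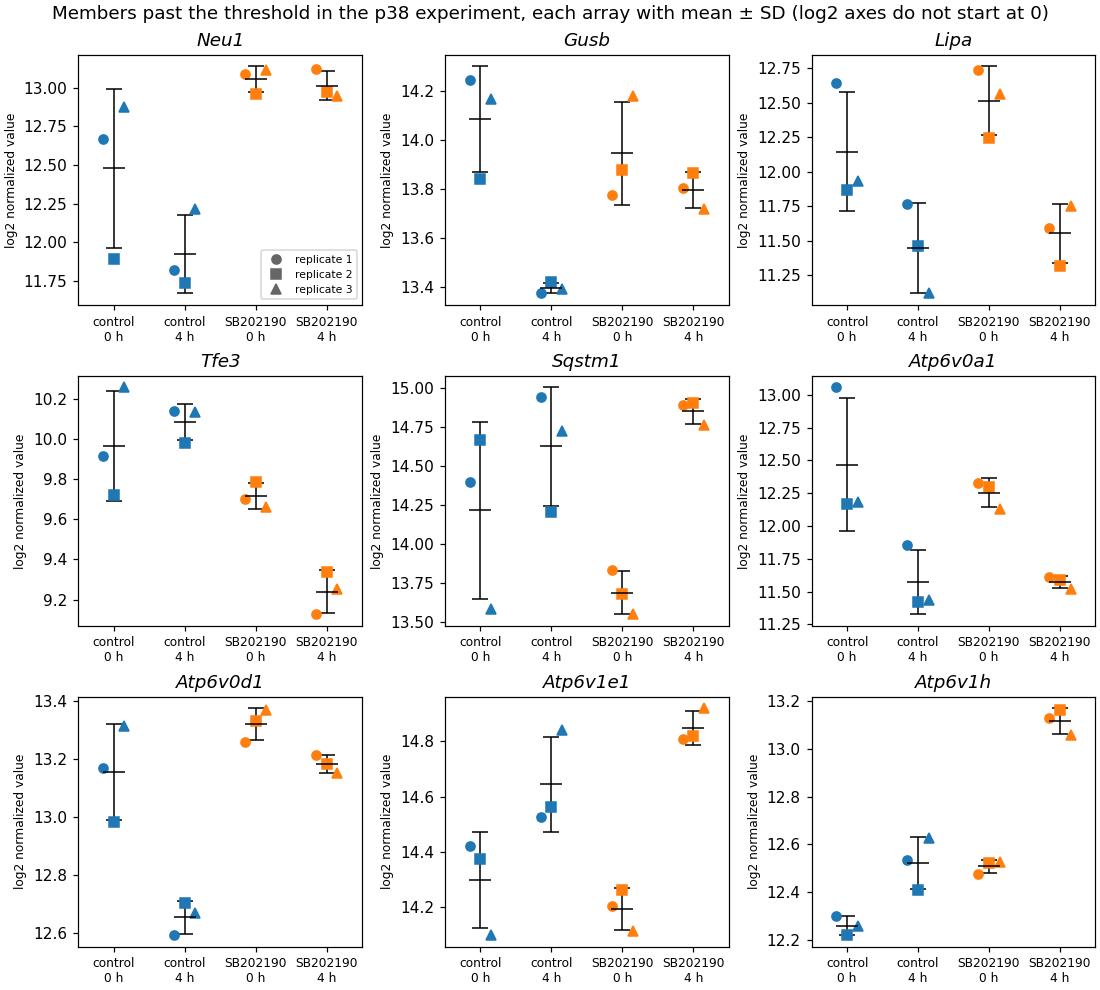
The log2 normalized value of the 9 members past the threshold in a comparison of the p38 experiment, for each array of the 4 groups, with the mean and SD of 3 arrays. *Tfe3* was lowest and *Neu1* above all 4 h controls in the SB202190 arrays at 4 h, and *Sqstm1* in SB202190-treated BMDMs lay between 13.55 and 13.83 at 0 h and between 14.76 and 14.90 at 4 h.

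Whether LPS changed the members differently with and without SB202190 was tested as the difference of the 2 changes. No member passed in limma, where 0.0219% of all genes were called, and 4 members and 510 genes had an unadjusted p under 0.05 (the t-test was not run on it). The median was 0.21 over the members and 0.01 over all genes, with 31 above 0 and 15 below. The smallest unadjusted p belonged to *Tfe3*, at -0.60 with a 95% interval of -1.05 to -0.15 (limma adjusted p = 0.695), and the next to *Gusb*, at 0.54 (0.09 to 0.99). The comparisons of SB202190 at 4 h and of LPS in controls share the control arrays at 4 h, so that a low control value there enters both with opposite sign. On the 2 BeadChips the median of the difference was 0.06.

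In the IKKβ experiment LPS gave a similar lean of the list. In wt the median log2 change was -0.21 (all genes -0.03) with 33 of 45 members below 0, and in IKKβ-deficient BMDMs it was -0.18 (all genes -0.02) with 36 below. No member passed limma in wt, where 0.0467% of all genes did, and at an unadjusted p under 0.05 there was 1 member and 628 genes. None passed in IKKβ-deficient BMDMs either (0% of all genes), where 3 members and 571 genes had an unadjusted p under 0.05. The methods' t-test, run 2-sided on linear values, called 0 and 3 members unadjusted and none after adjustment. Groups did not overlap for 1 member that was higher and 2 that were lower in wt (5.75% and 6.08% of all genes), and for 3 and 3 in IKKβ-deficient BMDMs (5.86% and 4.91%). Replicate numbers marked BeadChips here and arrays of the same number deviated together, so the fit with the replicate block is given beside these.

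With the replicate block, 5 members fell with LPS in wt, where 3.69% of all genes fell, and 1 fell in IKKβ-deficient BMDMs, where 1.83% did. *Gusb* was called in both. In wt it gave 13.89, 13.05 and 12.23 at 0 h and 12.70, 12.52 and 11.62 at 4 h (log2 change -0.78, blocked limma adjusted p = 0.025), and in IKKβ-deficient BMDMs 13.67, 13.17 and 12.59 and then 12.80, 12.69 and 11.86 (-0.69, blocked limma adjusted p = 0.043). The groups overlapped in both, but on every BeadChip the 4 h array was the lower one.

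*Lipa* in wt gave 11.08, 10.45 and 10.29 at 0 h and 9.44, 9.97 and 9.35 at 4 h (-1.02, blocked limma adjusted p = 0.039). *Manba* gave 10.35, 9.51 and 8.58 and then 8.79, 8.66 and 8.07 (-0.97, blocked limma adjusted p = 0.032). *Asah1*, the acid ceramidase, gave 13.84, 13.21 and 12.66 and then 12.93, 12.21 and 12.28 (-0.76, blocked limma adjusted p = 0.029). Each was lower at 4 h on all 3 BeadChips, by unequal steps.

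*Atp6ap1*, an accessory subunit of the pump, gave 14.06, 13.38 and 13.10 and then 13.46, 12.88 and 12.52 (-0.56, blocked limma adjusted p = 0.014) in wt. Its 3 steps were close to each other although the levels overlapped between times. In IKKβ-deficient BMDMs it gave 13.93, 13.16 and 12.73 and then 13.62, 13.08 and 12.64, a change of -0.16 that did not pass the test.

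Within single BeadChips the lean was uneven. The median LPS change of the 45 members in wt was -0.42, 0.02 and -0.11 on BeadChips 1, 2 and 3, with 38, 22 and 33 members below 0, and in IKKβ-deficient BMDMs -0.31, -0.09 and -0.08. On the same BeadChips *Cxcl2* also rose unevenly, in wt from 6.68 to 13.77, 8.99 to 11.21 and 8.45 to 10.38. In IKKβ-deficient BMDMs *Cxcl2* rose from 6.61 to 12.68, 8.95 to 11.78 and 7.67 to 9.78. The part of this unevenness in the lean was not tested. On all 3 BeadChips 16 members (35.6%) were lower after LPS in wt, against 26.2% of all genes, and 21 (46.7%) in IKKβ-deficient BMDMs, against 25.7%. In both genotypes 10 members (22.2%) were lower on every BeadChip, against 15.4% of all genes. These were *Cd63*, *Ctsa*, *Ctsh*, *Gusb*, *Manba*, *Lipa*, *Asah1*, *Atp6v0d1*, *Atp6v1d* and *Atp6ap1*. On every BeadChip 3 members were higher in wt (19.4% of all genes), 5 in IKKβ-deficient BMDMs (19.9%), and *Ctsc* and *Atp6v1e1* in both (10.6%).

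The MiT/TFE factors leaned the other way with LPS in IKKβ-deficient BMDMs. *Mitf* gave 7.02, 7.27 and 7.12 at 0 h and 8.28, 8.07 and 7.51 at 4 h (0.82, limma adjusted p = 0.53, and 0.076 with the block). *Tfe3* gave 8.76, 8.71 and 9.07 and then 9.51, 9.53 and 9.48 (0.66, limma adjusted p = 0.57, and 0.070 with the block). Neither overlapped between times and neither passed the test. In wt *Mitf* gave 7.26, 7.59 and 7.61 and then 7.03, 7.91 and 7.57, and *Tfe3* 8.96, 8.49 and 9.25 and then 8.79, 9.28 and 9.33, both with overlap.

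**Figure D5:**
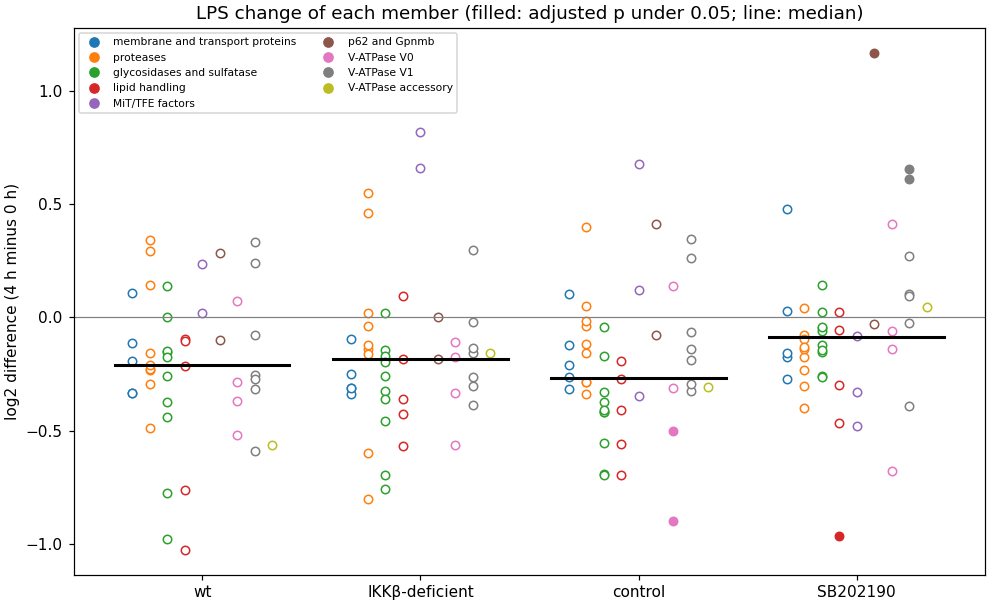
The log2 LPS change (4 h minus 0 h) of each tested member in wt, IKKβ-deficient, control and SB202190-treated BMDMs, coloured by role, with a line at the median. Filled points passed limma without the replicate block, and the medians are -0.21, -0.18, -0.27 and -0.09.

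Between the genotypes no member passed limma at 0 h (0% of all genes, 0 members and 52 genes at an unadjusted p under 0.05) or at 4 h (0.0117%, 1 member and 85 genes). The methods' t-test gave 0 members after adjustment at both times and 0 and 1 before it. The medians were 0.07 and 0.10 against 0.01 and 0.02 for all genes, with 29 of 45 members above 0 at each time. Within BeadChips they were -0.03, 0.19 and -0.02 at 0 h and 0.08, 0.14 and -0.01 at 4 h, so that the lean was largest on BeadChip 2. On all 3 BeadChips, 8 members (17.8%) were higher and 5 (11.1%) lower in IKKβ-deficient BMDMs at 0 h, against 18.6% and 14.1% of all genes, and 11 (24.4%) higher and 3 (6.67%) lower at 4 h, against 18.5% and 13.4%.

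The lowest genotype difference was that of *Atp6v1d*, the central shaft subunit D of V1. It gave 12.07, 11.90 and 11.79 in wt at 0 h and 11.09, 11.83 and 9.26 in IKKβ-deficient BMDMs (difference -1.20, SE 0.69), and 11.30, 11.89 and 11.63 against 10.73, 11.76 and 9.22 at 4 h (-1.04). The third IKKβ-deficient array was the low one at both times while replicate 2 was close to its wt array. *Glb1* gave 10.44, 10.37 and 10.74 against 9.17, 10.65 and 9.73 at 0 h and 9.68, 10.56 and 10.54 against 8.79, 10.62 and 9.36 at 4 h (-0.67 at each time), and again replicate 2 was not lower. Neither passed the test. The difference of the LPS changes between genotypes gave no member in limma (0% of all genes, 1 member and 29 genes at an unadjusted p under 0.05), with a median of 0.02.

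Members with several tested probes can be checked against themselves. Of 12 such members, probes differed in sign for 3 in the LPS change of controls, for 5 in SB202190 against control at 4 h (*Asah1*, *Cd63*, *Ctsa*, *Gpnmb* and *Lamp2*) and for 9 between the genotypes at 4 h. The probes of *Gusb*, *Atp6v0d1* and *Atp6v0a1* shared their sign in the LPS change of controls, where the 2 of *Atp6v0a1* gave -0.55 and -0.90. *Neu1*, *Tfe3*, *Sqstm1*, *Lipa*, *Atp6v1h* and *Atp6v1e1* rested on 1 tested probe each. Members with the CACGTG palindrome had a median of 0.28 at 4 h with SB202190 (14 members, 12 above 0) and those without it 0.20 (24 members), a description without a test.

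Genes near the members in function were read from other lists. Of 42 other lysosomal genes tested, 4 rose with SB202190 at 4 h in the normalized columns (*Ctns*, the cystine exporter, by 1.42 on the log2 scale, *Ostm1*, the partner of the chloride exchanger Clcn7, by 1.10, *Mfsd8* by 0.61 and *Nagpa* by 0.54) and none fell, with 38 above 0. The 4 are 9.52% of the list, against 3.27% of all genes. Within BeadChips 1, 2 and 3 only *Nagpa* was above 0 on each (0.29, 0.26 and 0.51), while *Ctns* was at 0.47, -0.66 and 1.43, *Ostm1* at 0.03, -0.0064 and 1.10 and *Mfsd8* at -0.09, -0.36 and 0.55. Of 22 genes of nutrient sensing at the lysosome 2 were higher (9.09%), the Rag GTPase *Rragd* (1.11) and *Nprl3* (0.51), a subunit of the GATOR1 complex. The call of *Nprl3* was lost with the replicate block (limma adjusted p = 0.0428 without it and 0.0547 with it), which in this comparison does not stand for the BeadChip. Within the BeadChips *Nprl3* was at 0.33, 0.50 and 0.75 and *Rragd* at -0.72, -0.17 and 1.32, the latter below 0 on the first 2. None of 8 other V-ATPase genes, 26 autophagy genes or 24 sorting genes was called there. LPS in controls gave 1 higher (*Mcoln2*, 1.21) and 2 lower (*Tpcn1*, -1.68, and *Slc17a5*, -1.02) of the 42 (7.14%, against 6.49% of all genes), and the same comparison with SB202190 gave 2 higher and 3 lower (11.9%, against 10.1%), shares near those of all genes. No gene of these lists was called in the IKKβ experiment without the block.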

How the data were processed

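Biotinylated cRNA was hybridised to Illumina MouseRef-8 v2 BeadChips and read with BeadStudio 3.1, per the labels and the study's methods. The authors deposited, for each array, a bead intensity and a detection p-value per probe, and a table of normalized intensity values, which the methods describe as quantile-normalized with Partek. The normalized values were used on the log2 scale, each 12-array experiment by itself. A probe was kept if at least 3 of the 12 arrays had a deposited detection p-value under 0.05, and the brightest kept probe stood for a gene. Gene symbols came from GEO's platform annotation (23978 probes with 1 symbol, 1719 with none).

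limma 3.58.1 in R 4.3.3 fitted 4 group means per experiment, with 3 arrays in each group, and p-values were adjusted by Benjamini-Hochberg over all genes tested (threshold 0.05). The number of arrays limits the precision. Groups came from the labels. In the IKKβ experiment the replicate number is the BeadChip, and the deviations of same-numbered arrays correlated at 0.42 to 0.93, which was taken as pairing. The p38 experiment showed pairing only among the controls (0.525 to 0.584 between 0 h and 4 h, 0.094 or less in any pair with SB202190). In its normalized columns number 2 joined controls of BeadChip 1 with SB202190 columns of BeadChip 3. For SB202190 against control the block there thus stands for the number and not for the BeadChip. The fit was tried on simulated data with independent arrays and an equal spread in all groups. The real arrays depart from both, so the simulation cannot show how reliable the calls are here. Alternatives were the replicate block, other filters, probes, transforms, weights, normalizations, the methods' Student t-test, and leaving out arrays. The intensities of 2 BeadChips and all within-BeadChip values were added after seeing the data. Intensities of the p38 experiment were quantile-normalized here before groups were compared on them.

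The members and the other lists were chosen with earlier results of these data known. Values on every array are given for members past the threshold in a comparison, for *Tfeb*, *Tfe3* and *Mitf*, and for the 3 largest differences each way for SB202190. *Atp6v1d*, *Glb1* between genotypes and members past the threshold only with the block were named after their values were seen. The authors' comparisons were not used.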

Additional observations from a re-analysis of the deposited data

How the results depend on the processing

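Of 414 recomputed counts and medians of members, 355 were rated the same. A count had to stay equal or within 1.5 times, and a median had to move by less than the SD between replicates. A median rated the same could change sign, as the members' genotype median at 0 h did (0.07, and at lowest -0.04 with a single array left out). With the replicate block, which pairs arrays by number, LPS in wt called 5 members in place of 0, LPS in IKKβ-deficient BMDMs called 1, and no other count moved by over 1.5 times. The methods' t-test, unadjusted, called 3 members for LPS in IKKβ-deficient BMDMs, 1 between genotypes at 4 h, 5 for LPS in controls, 18 for LPS with SB202190, 4 for SB202190 at 0 h and 13 at 4 h, and after adjustment 0 for LPS in controls and 12 for LPS with SB202190. Fitting the compared groups alone gave 0 for LPS in controls and 18 for LPS with SB202190, array weights by group gave 0 and 17, and averaging the SB202190 arrays as 1 sample gave 0 for LPS in controls, 0 for LPS with SB202190 and 0 for SB202190 at 4 h, with fewer samples. On the intensities under their own labels these 3 counts were 0, 0 and 0, and the medians were -0.041 for LPS with SB202190, -0.29 for SB202190 at 0 h and -0.14 at 4 h. On the intensities of 2 BeadChips with the replicate block the counts were again 0, 0 and 0, the medians -0.13, -0.29 and -0.23, and the median difference of LPS changes 0.057. Signs turned for *Sqstm1* with LPS under SB202190 (-0.38 on the intensities under their own labels, -0.68 on 2 BeadChips), for *Atp6v0d1* with SB202190 at 4 h (-0.15 and -0.16), and on 2 BeadChips for *Atp6v1h* with LPS under SB202190 (-0.00056) and with SB202190 at 4 h (-0.14). The cause was not tested. Leaving out a whole replicate gave 0 to 10 members for LPS in controls (10 without replicate 2), 0 to 3 for LPS with SB202190 and 0 to 5 for SB202190 at 4 h. Leaving out single arrays gave 0 to 14, 1 to 2 and 0 to 5. The medians then ranged from -0.14 to -0.059 for LPS with SB202190, from -0.055 to 0.18 for SB202190 at 0 h, from 0.12 to 0.33 at 4 h and from 0.029 to 0.32 for the difference of LPS changes. *Tfe3* with SB202190 at 4 h kept its sign in all 20 alternatives (-0.95 to -0.60) and passed in 12, and *Neu1* in 20 (0.17 to 1.27) and 10. Scaling the IKKβ intensities to each array's median moved the median of all genes for LPS in wt from -0.03 to -0.17 and the members' genotype median at 0 h from 0.07 to -0.06. *Tfeb* was detected on too few arrays of the IKKβ experiment to be tested there.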
